A study of Homo sapiens with 40 samples.

Results

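The 6 heavy-strand mitochondrial complex I genes, MT-ND1, MT-ND2, MT-ND3, MT-ND4, MT-ND4L and MT-ND5, were followed through the 10 conditions of an RNA sequencing study of HEK293A cells. HEK293A is a human embryonic kidney cell line that grows attached. The genes were taken by name, as the subunits of NADH:ubiquinone oxidoreductase (complex I) whose mRNA is copied from the heavy strand of mitochondrial DNA, out of 58395 genes listed and 28922 tested. They were chosen by measured values as well, because MT-ND5 had been seen at a lower level with OL9-119 in both genotypes. The values of OL9-119 alone are therefore a description here, with no test.

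The wild-type (WT) line was compared with PARP1-KO cells, 1 clone in which part of the PARP1 gene was deleted with CRISPR/Cas9, so that differences of the clone and of the deletion cannot be told apart. The genotype field of the labels calls these cells a knockdown and their titles a knockout. Cells of each genotype were left untreated, or received 0.1% DMSO as the solvent control, topotecan (Tpc), OL9-119 at 5 µM, or both compounds. Exposure lasted 5 to 5.5 h. All cells given a compound, also those with OL9-119, had 0.1% DMSO as well, and untreated cells had none. Tpc was given at 100 nM to WT and at 50 nM to PARP1-KO cells, so the doses differ between the genotypes wherever Tpc is involved. Tpc traps DNA topoisomerase I on DNA, and OL9-119 is a usnic acid derivative that inhibits tyrosyl-DNA phosphodiesterase 1, the enzyme that removes such trapped topoisomerase. Each condition had 4 libraries. The labels call them biological and the methods of the study technical replicates, so p-values measure only the spread between these libraries.

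Complex I takes electrons from NADH at the start of the respiratory chain and pumps protons across the inner mitochondrial membrane. Its membrane arm holds the subunits encoded by mitochondrial DNA, and all other subunits are encoded in the nucleus. MT-ND2, MT-ND4 and MT-ND5 encode the antiporter-like, proton-pumping subunits. MT-ND1 encodes the subunit next to the quinone-binding site, and MT-ND3 and MT-ND4L encode small subunits that link it to the pumps. Each strand of mitochondrial DNA is copied as a long precursor, from which tRNAs are cut out, and cutting at the tRNAs sets most mRNA ends free.

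In hg38 all 6 genes lie on the plus strand of chromosome M, as single exons without annotated introns, at 3307 to 4262 (MT-ND1), 4470 to 5511 (MT-ND2), 10059 to 10404 (MT-ND3), 10470 to 10766 (MT-ND4L), 10760 to 12137 (MT-ND4) and 12337 to 14148 (MT-ND5). The last 30 bases of each gene in the reference are given here because MT-ND5 ends differently from most of the others. Capitals mark the bases of the stop codon that the DNA encodes.
MT-ND1, chrM:4233-4262: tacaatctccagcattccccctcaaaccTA
MT-ND2, chrM:5482-5511: ctatctccccttttatactaataatcttaT
MT-ND3, chrM:10375-10404: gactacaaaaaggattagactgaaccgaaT
MT-ND4L, chrM:10737-10766: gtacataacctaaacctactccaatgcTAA
MT-ND4, chrM:12108-12137: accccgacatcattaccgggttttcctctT
MT-ND5, chrM:14119-14148: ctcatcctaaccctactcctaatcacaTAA
MT-ND1 encodes 2 bases of its stop codon and MT-ND2, MT-ND3 and MT-ND4 encode 1, so that the poly(A) tail completes these stops. MT-ND4L and MT-ND5 encode all 3 bases. The genes MT-ND1, MT-ND2, MT-ND3 and MT-ND4 are followed at a distance of 0 bases by a tRNA gene. MT-ND5 is followed at 0 bases by MT-ND6, the complex I gene of the opposite strand, and by no tRNA gene.

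MT-ND4L and MT-ND4 overlap by 7 bases and share an mRNA. In the window chrM:10748-10777 the capitals mark that overlap.
MT-ND4L and MT-ND4: aaacctactccaATGCTAAaactaatcgtc
The counter used by the study assigns a read only where it touches a single gene, so read pairs across this overlap were counted for neither, which weighs most on MT-ND4L with its 297 bases. The nuclear genome holds copies of all 6 genes. MT-ND2 matched chromosome 1 from 629640 to 630681 over its whole length at 98.4% identity. Of its windows of 100 bases, the length of a single read and not of a pair, 26.1% were found in the nuclear genome without a mismatch. For MT-ND1 it was 11%, and for the other 4 genes 0%. Counts of MT-ND1 and MT-ND2 are therefore less certain than those of the other members. MTND2P28, the annotated copy on chromosome 1, had 13.6 to 44.8 CPM, the counts scaled to a common library size, against 1025 to 3415 CPM of MT-ND2.

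Total counts ranged from 3455043 to 20379777 per library. PARP1 stood at 737 to 887 CPM in WT and at 30.4 to 46.6 CPM in PARP1-KO libraries. Among markers used for this line, VIM had 471 to 970 CPM, whereas PAX2 had a median of 1.40 CPM, and of the markers of other cells PTPRC and MYH7 had a median of 0 and GFAP one of 1.56 CPM. Genes of the mitochondrial chromosome took 4.73 to 8.25% of the counts of WT and 3.73 to 4.97% of those of PARP1-KO libraries. The 6 members together took 0.731 to 1.48% in WT and 0.404 to 0.934% in PARP1-KO libraries. The smallest count of any member in any library was 1233, for MT-ND4L, so that counting error was small beside the spread between libraries.

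A pair of PARP1-KO libraries went against their labels. A score was built from the 20 nuclear genes that differed most clearly between OL9-119-treated and untreated PARP1-KO cells, a contrast in which neither library takes part. It is the mean log2 difference from the untreated libraries, signed by the direction of each gene. The score was 0.49 to 0.62 with OL9-119, −0.04 to 0.04 without treatment and 0.05 to 0.20 with Tpc. The library labelled DMSO replicate 3 scored 0.57, against 0.04 to 0.12 for the other DMSO libraries. The library labelled Tpc + OL9-119 replicate 3 scored 0.14, against 0.43 to 0.55 for the others of its condition. MT-ND5 set the same libraries apart. Tests and gene list counts that rest on them are given with all libraries and without these 2, while values of single genes outside the mitochondrial chromosome and the correlations at the end are with all libraries. Since MT-ND5 itself takes part in the observation, its values without them are no independent test.

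**Figure D1:**
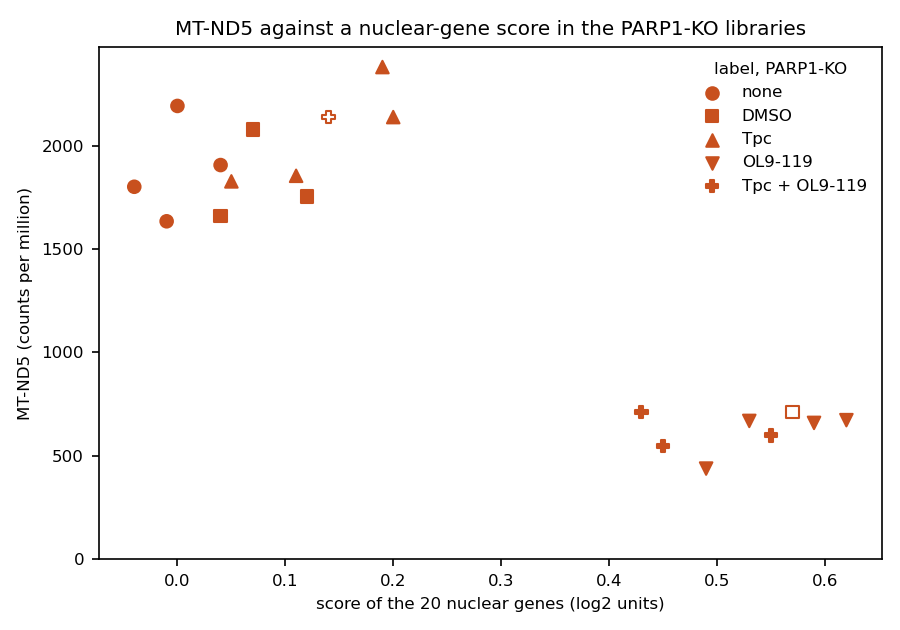
MT-ND5 (CPM, vertical axis) against the score of 20 nuclear genes (log2 units, horizontal axis) in the 20 PARP1-KO libraries, with a symbol for each label and open symbols for the 2 libraries against their labels. The library labelled DMSO replicate 3 (score 0.57) lies among those with OL9-119, and the library labelled Tpc + OL9-119 replicate 3 (score 0.14) among those without it.

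To compare genes, levels were scaled per kilobase of gene length. This does not correct for read pairs lost at the MT-ND4L and MT-ND4 overlap, or for stretches MT-ND1 and MT-ND2 share with nuclear copies. The ranks of these genes are therefore less certain. In WT cells with DMSO the members stood in the order MT-ND4 (3240 ± 440 CPM per kb, SD, n = 4), MT-ND3 (3027 ± 1239), MT-ND2 (2911 ± 412), MT-ND1 (2116 ± 338), MT-ND5 (1584 ± 238) and MT-ND4L (1042 ± 296). The first 3 differed by less than their SD, and every later step was larger than the SD of both neighbours. In PARP1-KO cells with DMSO the order was MT-ND4 (1748 ± 236), MT-ND2 (1454 ± 255), MT-ND3 (1331 ± 77.3), MT-ND1 (899 ± 139), MT-ND5 (856 ± 324) and MT-ND4L (759 ± 77.9). There, MT-ND1, MT-ND5 and MT-ND4L lay within an SD of their neighbours, and without the library labelled DMSO replicate 3 MT-ND5 was at 1010 ± 121.5, above MT-ND1 at 834.5 ± 60.5 (n = 3).

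With OL9-119 the order was different at its lower end. In WT cells MT-ND5 was the lowest member, at 326 ± 39.7 CPM per kb, below MT-ND4L at 783 ± 144. In PARP1-KO cells with OL9-119 it was also the lowest, at 336 ± 63.2, against 564 ± 124.3 for MT-ND4L. The levels of MT-ND2, 2074 ± 202 in WT and 1451 ± 323 in PARP1-KO cells, were then the highest, within an SD of MT-ND4 (1906 ± 207 and 1375 ± 228).

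**Figure D2:**
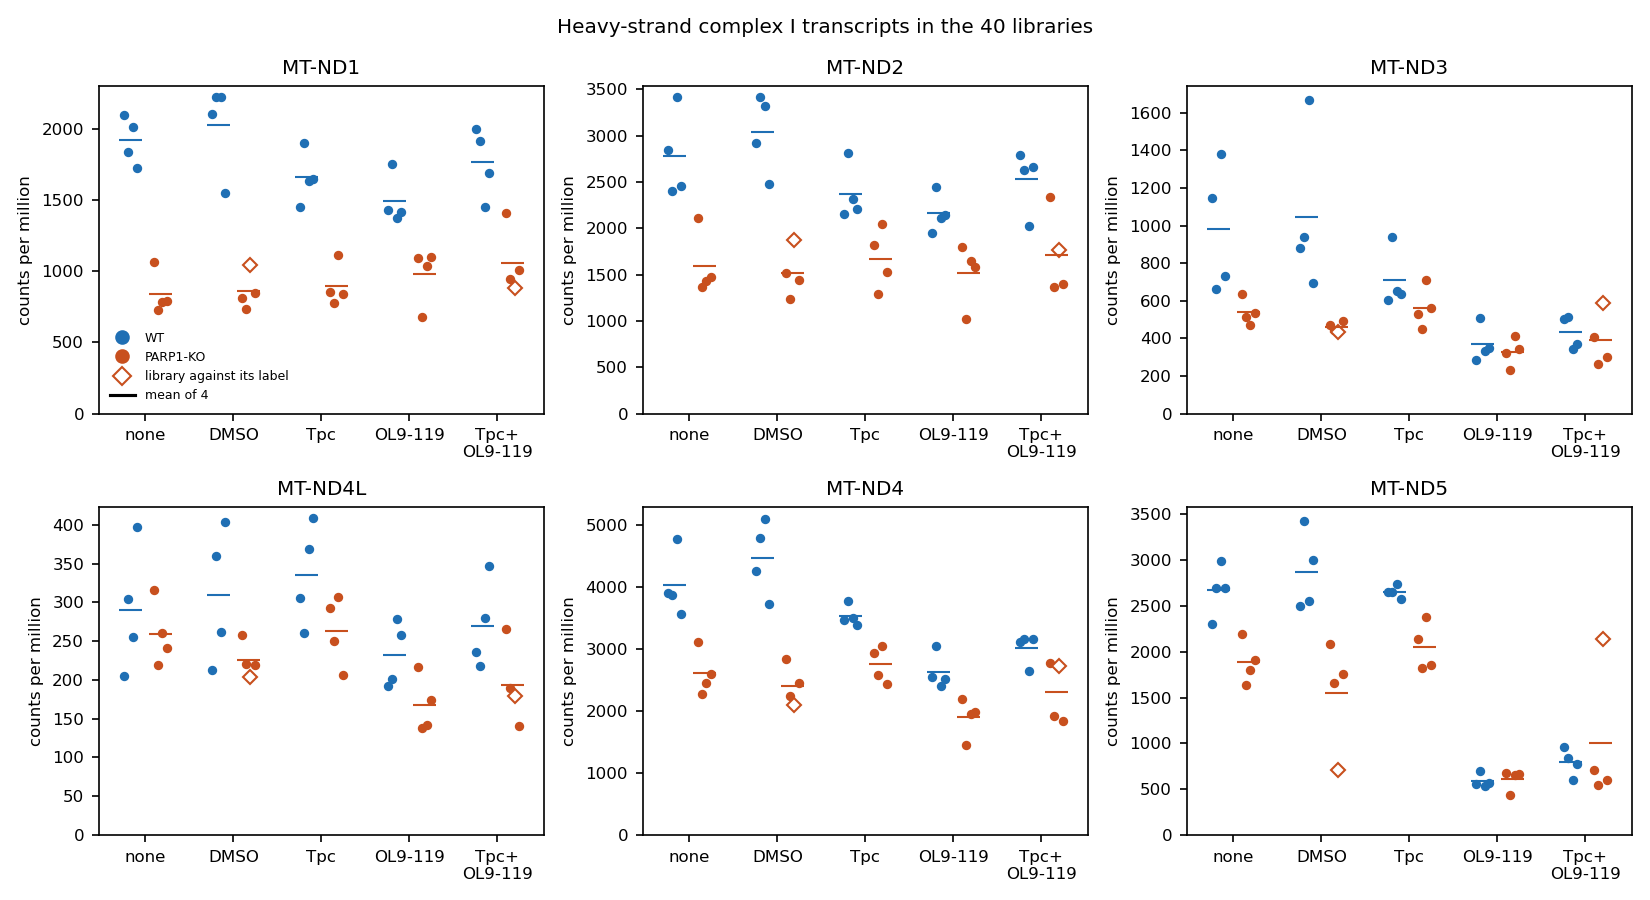
Level of each member (CPM, from 0) in the 40 libraries by treatment, with WT in blue, PARP1-KO in orange, the mean of 4 libraries as a line and open diamonds for the 2 libraries against their labels. MT-ND5 lies at 539 to 961 CPM in the 8 WT libraries with OL9-119 and at 2303 to 3424 CPM in the other 12.

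The first question was how the PARP1 knockout changed these transcripts. With DMSO, all 6 members had negative log2 fold changes between PARP1-KO and WT cells, with a median of −0.95 against 0.19 over all genes tested. CPM are shares of the poly(A) RNA of a whole culture, so fewer cells rich in these transcripts and less of them per cell cannot be told apart. A gene with an adjusted p below 0.01 in edgeR's quasi-likelihood test over all 40 libraries is called a differentially expressed gene (DEG) here. MT-ND1, MT-ND2, MT-ND3, MT-ND4 and MT-ND5 were DEGs and lower in PARP1-KO cells, 5 of 6, while 5.75% of all genes tested were lower DEGs. Without the 2 libraries the same 5 genes were lower DEGs, against 4.38% of all genes.

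Among the pump subunits, MT-ND2 stood at 1518, 1234, 1872 and 1436 CPM in PARP1-KO and at 2924, 3413, 3324 and 2474 CPM in WT cells with DMSO. Every PARP1-KO library was below every WT library (log2 fold change −1.0 ± 0.15 SE, edgeR adjusted p = 6.72e-07). MT-ND4 had 2844, 2242, 2095 and 2456 CPM in PARP1-KO and 4247, 4792, 5096 and 3725 CPM in WT libraries, again without overlap (−0.89 ± 0.12 SE, edgeR adjusted p = 5.99e-08). MT-ND5 had 2079, 1659, 712 and 1754 CPM against 2503, 3424, 2553 and 3001 CPM. The third of these PARP1-KO libraries is the one against its label. The log2 fold change of MT-ND5 was −0.89 (SE 0.22, adjusted p = 0.00218 by edgeR), and −0.65 without the 2 libraries (SE 0.13, adjusted p = 0.000245). DESeq2 gave MT-ND5 an adjusted p of 0.0136, a fit of only the compared groups 0.0184, and leaving out only the library labelled DMSO replicate 3 or WT DMSO replicate 2 gave 0.0338 and 0.012, all above the threshold of 0.01.

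MT-ND1, next to the quinone site, had the lowest log2 fold change of the 6, with 811, 735, 1046 and 848 CPM in PARP1-KO and 2105, 2222, 2219 and 1545 CPM in WT cells. The PARP1-KO mean was 42.5% of the WT value (log2 fold change −1.23 ± 0.14 SE, edgeR adjusted p = 3.98e-10). MT-ND3 had 473, 442, 435 and 492 CPM in PARP1-KO and 882, 941, 1671 and 696 CPM in WT libraries. Its WT libraries were spread widely, but all lay above those of PARP1-KO cells (−1.19 ± 0.21 SE, edgeR adjusted p = 1.1e-05). MT-ND4L overlapped between the genotypes, at 204 to 258 CPM against 213 to 404 CPM, and was no DEG (−0.46, 95% interval −0.81 to −0.11, adjusted p = 0.0627 by edgeR). It passed when no filter on low counts was used (−0.48, SE 0.12, adjusted p = 0.00116 by edgeR). The SEs of that fit can fall short of the spread between libraries, as the last section shows. The log2 fold changes without the 2 libraries were −1.34 for MT-ND1, −1.12 for MT-ND2, −1.16 for MT-ND3, −0.83 for MT-ND4 and −0.41 for MT-ND4L (adjusted p = 0.156 by edgeR).

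Without treatment, another set of 8 libraries, from the same clone and the same WT line, gave the same directions. The 4 genes MT-ND1 (log2 fold change −1.19), MT-ND2 (−0.80), MT-ND3 (−0.87) and MT-ND4 (−0.63) were lower DEGs, and 5.74% of all genes tested were. Of these, MT-ND3 did not pass when WT untreated replicate 3, its highest library there at 1379 CPM, was left out (−0.66, adjusted p = 0.0206 by edgeR). MT-ND5 had 2192, 1634, 1801 and 1906 CPM in PARP1-KO and 2303, 2694, 2990 and 2700 CPM in WT cells. These ranges did not overlap, but the difference did not pass (−0.50 ± 0.22 SE, edgeR adjusted p = 0.107). When the 2 libraries, which are not part of this contrast but of the common estimate of spread, were left out, the SE of MT-ND5 was 0.12 and it passed (adjusted p = 0.0015), giving 5 members against 5.81% of all genes. It also passed in a fit of only the compared groups (adjusted p = 0.00404 by edgeR). Without a filter on low counts it passed too (SE 0.10, adjusted p = 6.13e-06 by edgeR), with the limit on SEs given above. MT-ND4L was at 89.2% of the WT level (−0.16, 95% interval −0.51 to 0.18).

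The lower level in PARP1-KO cells was not limited to complex I genes of the heavy strand. Of the other 8 genes of that strand, 6 were lower DEGs with DMSO, against 5.75% of all genes. The median log2 fold change of the 8 was −1.03. The lower DEGs included MT-CO2 (−1.33) and MT-CO3 (−1.29), subunits of cytochrome c oxidase, and MT-CYB (−1.27), of the cytochrome bc1 complex. The 12S rRNA gene MT-RNR1 was no DEG (0.48, and 0.11 without the 2 libraries). MT-ND6, on the light strand, was a lower DEG (−1.25, SE 0.23). Without the 2 libraries, 6 of these 8 genes and MT-ND6 were again lower DEGs, against 4.38% of all genes.

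Of the 37 nuclear-encoded complex I subunits, 10 were lower DEGs with DMSO by edgeR, as were 5.75% of all genes. None of the other subunits was a DEG, and the median log2 fold change was −0.45. An unadjusted p under 0.05 was found for 24 of the 37 and for 9411 of the 28922 genes tested. Leaving out the 2 libraries gave 9 lower DEGs among the 37, against 4.38% of all genes. NDUFC1 was at 17.1 ± 1.74 CPM in PARP1-KO and 39.5 ± 9.33 CPM in WT cells (SD, n = 4 libraries, log2 fold change −1.21). NDUFS6 (−1.08) and NDUFV1 (−1.05), both of the arm that takes up NADH, followed. Of 18 assembly factors, 3 were lower DEGs, TMEM126A (−1.05), TMEM126B (−0.54) and COA1 (−0.47), and 2 without the 2 libraries. Without treatment 11 of the 37 subunits and 3 of the 18 assembly factors were lower DEGs, against 5.74% of all genes, and 1 assembly factor was higher, as were 1727 of the 28922 genes tested.

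The genes that transcribe mitochondrial DNA did not share this direction. Of 12 mitochondrial transcription genes, 4 were higher and the other 8 were no DEGs with DMSO by edgeR, against 6.67% of all genes that were higher DEGs. TFB2M, a transcription initiation factor, was at 10.85 ± 1.47 CPM in PARP1-KO and 4.58 ± 2.39 CPM in WT cells (log2 fold change 1.23). TOP3A (0.68), a DNA topoisomerase, POLRMT (0.66), the mitochondrial RNA polymerase, and TOP1MT (0.66), the mitochondrial topoisomerase I, were higher as well. Without the 2 libraries 3 of the 12 were higher, as were 1458 of the 28705 genes tested. Without treatment 2 were higher and 1 lower, against 1727 and 1659 of the 28922 genes tested. Of 21 tested genes of mitochondrial RNA processing and stability, 2 were higher and 4 lower with DMSO, against 6.67% and 5.75% of all genes. Leaving out the 2 libraries gave 1 higher and 4 lower, against 1458 and 1258 of the 28705 genes tested. Among those called with all libraries were FASTK (−1.06), PTCD2 (0.92) and REXO2, an oligoribonuclease (−0.85). With DMSO, no nuclear copy of an ND gene was a DEG by edgeR among the 15 tested. Of these copies, 1 had an unadjusted p under 0.05, as had 9411 of the 28922 genes tested.

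**Figure D3:**
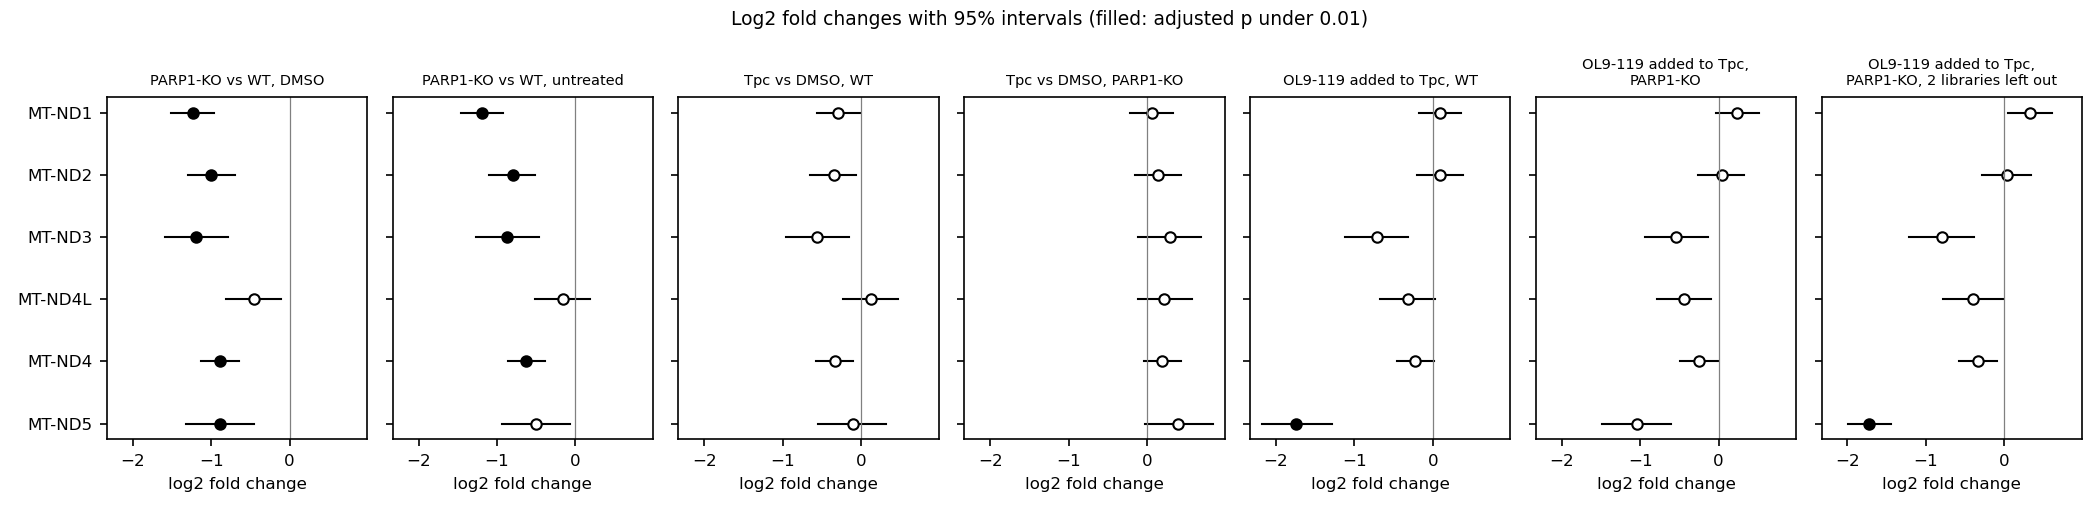
Log2 fold changes of the 6 members (points) with 95% intervals (lines) in 6 comparisons and, in the last panel, in PARP1-KO cells with 2 libraries left out, where filled points mark an adjusted p under 0.01 by edgeR. In the genotype comparison with DMSO all points are below 0, and in OL9-119 added to Tpc MT-ND5 lies at −1.74 in WT and at −1.04 or −1.72 in PARP1-KO cells.

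DMSO alone was compared with no treatment as the solvent check. None of the 6 members was a DEG in either genotype by edgeR or DESeq2, and none had an unadjusted p under 0.05. Over all genes, 0% were DEGs in WT and 0% in PARP1-KO cells by edgeR, with 3116 and 538 genes at an unadjusted p under 0.05 and 9 and 0 DEGs by DESeq2. The log2 fold changes of the members lay between 0.08 and 0.15 in WT and between −0.28 and 0.03 in PARP1-KO cells. Those in PARP1-KO cells without the 2 libraries lay between −0.20 and −0.04, with MT-ND5 at −0.04 in place of −0.28.

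Tpc was then compared with DMSO. None of the 6 members was a DEG in WT cells by edgeR or DESeq2, while 0.985% of all genes were DEGs by edgeR. An unadjusted p under 0.05 was found for 4 of the 6 members and for 4672 of the 28922 genes tested. MT-ND3 stood at 606, 937, 654 and 639 CPM with Tpc and 882, 941, 1671 and 696 CPM with DMSO, with overlap (log2 fold change −0.56, 95% interval −0.96 to −0.16, adjusted p = 0.152 by edgeR). MT-ND5 was at 2651, 2651, 2738 and 2570 CPM with Tpc, inside the range of the DMSO libraries (−0.11, 95% interval −0.55 to 0.32). The median over the members was −0.31, against 0.00 over all genes.

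In PARP1-KO cells, no member was a DEG with Tpc by edgeR or DESeq2 and none had an unadjusted p under 0.05, while 0% of all genes were DEGs by edgeR (1101 at an unadjusted p under 0.05, and 0 by DESeq2), or 12 genes without the 2 libraries. All 6 log2 fold changes were positive, from 0.06 for MT-ND1 to 0.40 for MT-ND5, with a median of 0.21. MT-ND5 had 2138, 1827, 2380 and 1854 CPM with Tpc. Its log2 fold change without the 2 libraries was 0.14 (95% interval −0.12 to 0.40), and those of the other members lay between 0.11 and 0.24. The difference between the genotypes in the response to Tpc, given at unequal doses, was no DEG for any member by edgeR or DESeq2. Over all genes, 0.173% were DEGs by edgeR. An unadjusted p under 0.05 was found for 3 of the 6 members and for 2510 of the 28922 genes tested. For MT-ND3 the difference was 0.85 (95% interval 0.29 to 1.42, adjusted p = 0.342 by edgeR) and for MT-ND4 0.53 (0.20 to 0.86, adjusted p = 0.287). These were 0.80 and 0.44 without the 2 libraries, and again did not pass. Without a filter on low counts MT-ND3 passed (0.87, SE 0.16, adjusted p = 3.63e-05 by edgeR), in a fit whose SEs can fall short of the spread between libraries.

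OL9-119 alone was the treatment in which MT-ND5 had been noticed, and its values are listed without a test. In WT cells MT-ND5 was counted at 558, 698, 539 and 570 CPM with OL9-119, against 2503 to 3424 CPM with DMSO and 2303 to 2990 CPM without treatment. Its level was 20.6% of that with DMSO (log2 difference −2.28, SE 0.23). In PARP1-KO cells it was at 672, 438, 659 and 668 CPM, against 1634 to 2192 CPM without treatment, a level of 32.4% of the untreated one. All 8 libraries with OL9-119 alone were thus below all 8 untreated ones, which had no DMSO. The means with the compound were 591 ± 72.0 CPM in WT and 609 ± 114.5 CPM in PARP1-KO cells (SD, n = 4 each), and those without treatment 2672 ± 282 and 1883 ± 234 CPM.

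Relative to DMSO, MT-ND5 of PARP1-KO cells was at 39.3% with all libraries and at 33.1% without the 2 libraries. Next after MT-ND5 came MT-ND3, at 284, 509, 332 and 350 CPM in WT cells with OL9-119, or 35.2% of the DMSO level, and at 322, 232, 412 and 342 CPM in PARP1-KO cells, or 70.9%. MT-ND4 was at 58.8% of the DMSO level in WT and at 78.6% in PARP1-KO cells. MT-ND1 (73.8% and 113.6%), MT-ND2 (71.3% and 99.8%) and MT-ND4L (75.1% and 74.3%) were closer to it than MT-ND4 in WT cells, and in PARP1-KO cells MT-ND4L was not. The percentages in PARP1-KO cells without the 2 libraries were 75.0 for MT-ND4, 121.7 for MT-ND1, 107.8 for MT-ND2 and 71.7 for MT-ND4L. MT-ND5, which was chosen for this fall, had the lowest percentage of the DMSO level in both genotypes, also without the 2 libraries (33.1% in PARP1-KO cells). MT-ND3 came next, but in PARP1-KO cells it was close to MT-ND4L. There they stood at 70.9 and 74.3% with all libraries, and at 69.2 and 71.7% without the 2 libraries.

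The comparison of Tpc + OL9-119 with Tpc tests OL9-119 in other libraries than those with OL9-119 alone. Since results of all conditions were known when MT-ND5 was noticed, it cannot be said that these libraries had no part in the choice, and the p-values of MT-ND5 are to be read with that limit. In WT cells, MT-ND5 fell from 2651, 2651, 2738 and 2570 CPM with Tpc to 961, 846, 599 and 775 CPM with both compounds. The groups did not overlap, and 29.98% of the level remained (log2 fold change −1.74 ± 0.23 SE, edgeR adjusted p = 1.08e-06). MT-ND5 was the only DEG among the members, 1 of 6, where 0.0622% of all genes tested were lower DEGs. In DESeq2 it was the only one as well.

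The other pump subunits did not pass the test. MT-ND2 was at 2791, 2632, 2023 and 2657 CPM with both compounds and 2148, 2815, 2319 and 2211 CPM with Tpc (log2 fold change 0.09, 95% interval −0.20 to 0.38). MT-ND4 had 3115, 3163, 2636 and 3151 CPM against 3468, 3770, 3500 and 3378 CPM. Although these libraries did not overlap, the difference was small and did not pass (−0.23, 95% interval −0.46 to 0.01, adjusted p = 0.488 by edgeR). MT-ND1 had a log2 fold change of 0.09 (−0.18 to 0.36) and MT-ND4L one of −0.32 (−0.67 to 0.03).

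MT-ND3 had 504, 512, 341 and 371 CPM with both compounds and 606, 937, 654 and 639 CPM with Tpc. All libraries with both compounds lay below those with Tpc, but the log2 fold change of −0.71 (95% interval −1.12 to −0.31) had an adjusted p of 0.151 by edgeR. When no filter on low counts was used it passed (−0.72, SE 0.11, adjusted p = 1.95e-07 by edgeR), in a fit whose SEs can fall short of the spread between libraries.

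In PARP1-KO cells, MT-ND5 stood at 711, 548, 2139 and 598 CPM with both compounds, against 2138, 1827, 2380 and 1854 CPM with Tpc. The third library, labelled Tpc + OL9-119 replicate 3, lies within the range with Tpc and the other 3 far below it. With all libraries no member was a DEG by edgeR or DESeq2 and 4 had an unadjusted p under 0.05, while 0% of all genes were lower DEGs, with 1186 at an unadjusted p under 0.05 in either direction and 1 DEG by DESeq2. The log2 fold change of MT-ND5 was −1.04 (SE 0.22, adjusted p = 0.558 by edgeR). Without the 2 libraries it was −1.72 (95% interval −1.99 to −1.45, adjusted p = 3.78e-13 by edgeR). MT-ND5 was then the only lower DEG, so that the 0.00348% of genes tested is MT-ND5 itself. Leaving out only the library labelled Tpc + OL9-119 replicate 3 gave −1.71 (adjusted p = 1.11e-08). The libraries were left out after the data were seen, and MT-ND5 had helped to set them apart. These p-values are therefore no independent test.

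MT-ND3 of PARP1-KO cells had 405, 262, 586 and 302 CPM with both compounds and 528, 452, 713 and 561 CPM with Tpc (log2 fold change −0.54, and −0.79 without the 2 libraries, adjusted p = 0.973 by edgeR). The remaining members lay between −0.44 and 0.24, or −0.40 and 0.33 without the 2 libraries, and did not pass.

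The difference between the genotypes in this response was tested directly. No member passed by edgeR or DESeq2, while 0.00692% of all genes were DEGs by edgeR. An unadjusted p under 0.05 was found for 1 of the 6 members and for 2307 of the 28922 genes tested. For MT-ND5 the difference was 0.70 (95% interval 0.09 to 1.32, adjusted p = 0.612 by edgeR) with all libraries and 0.04 (−0.31 to 0.38) without the 2 libraries. That interval leaves room for differences of up to about 0.38 on the log2 scale, at Tpc doses that differ.

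Along the order of genes on the heavy strand, the changes with OL9-119 added to Tpc were uneven. In WT cells the rRNA gene MT-RNR1, the first of the series, rose from 2783, 4349, 2926 and 2710 CPM to 6945, 7985, 4879 and 5294 CPM (log2 fold change 0.98, adjusted p = 0.00295 by edgeR). It was the only higher DEG among the 8 other genes of the strand, and 0.118% of all genes were higher DEGs. MT-CO2 (−0.63, adjusted p = 0.00307) was the only lower one. MT-CYB, which lies beyond MT-ND5 on the same precursor, was at 83.7% of its level with Tpc, with group means of 3329 and 3978 CPM, and was no DEG.

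MT-ND6, transcribed from the other strand and directly adjoining the end of MT-ND5, fell in WT cells from 265, 329, 454 and 487 CPM to 85.7, 109, 113.9 and 152 CPM. Its log2 fold change of −1.74 (SE 0.23, adjusted p = 1.69e-06 by edgeR) was the same as that of MT-ND5. In PARP1-KO cells it had a log2 fold change of −0.71 with all libraries and −0.76 without the 2 (adjusted p = 1). The difference between the genotypes was 1.03 (95% interval 0.40 to 1.66) and did not pass (adjusted p = 0.553 by edgeR). Which strand column of the counts was kept is not given in the sources used here, and whether reads from the opposite strand entered either gene was not tested.

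None of the 37 nuclear-encoded complex I subunits, 18 assembly factors, 12 transcription genes or 21 tested RNA processing genes was a DEG on addition of OL9-119 to Tpc in either genotype by edgeR. For WT libraries an unadjusted p under 0.05 was found for 8, 2, 2 and 2 of them, against 3111 of the 28922 genes tested. PARP1-KO libraries gave 1, 0, 2 and 0, against 1186 of the 28922. Over all genes, DEGs in either direction numbered 52 for WT and 0 for PARP1-KO libraries. Having no DEG therefore sets these lists apart from other genes in neither genotype. The median log2 fold change of the nuclear-encoded subunits was −0.22 in WT and −0.01 in PARP1-KO cells.

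**Figure D4:**
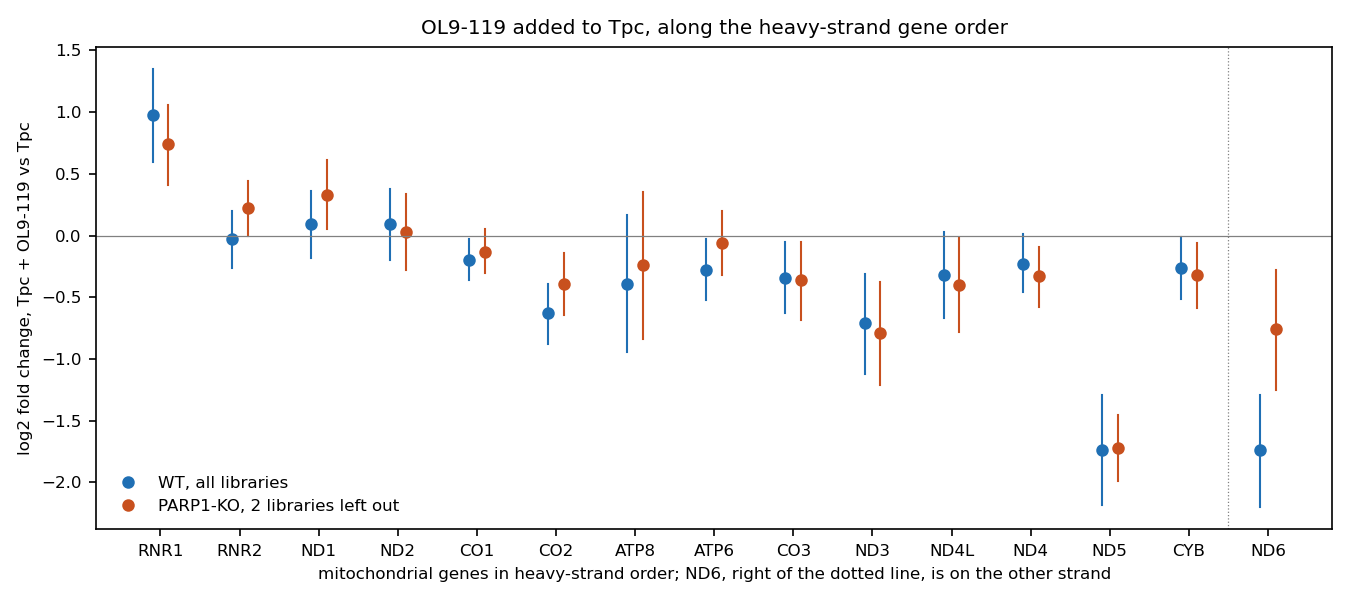
Log2 fold change of Tpc + OL9-119 against Tpc (vertical axis, points with 95% intervals) for the mitochondrial rRNA and protein genes in heavy-strand order (horizontal axis), with MT-ND6 of the other strand at the right, in WT (blue, all libraries) and PARP1-KO cells (orange, 2 libraries left out). MT-ND5 lies at −1.74 and −1.72, MT-RNR1 at 0.98 and 0.74, and MT-ND6 at −1.74 and −0.76.

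A further view sets each member against its neighbours only, as a share of the counts of the 12 heavy-strand mRNAs in the same library, so that a common change of mitochondrial RNA cancels. In WT cells MT-ND5 made up 6.21, 5.62, 6.58 and 6.34% with Tpc and 2.61, 2.26, 2.03 and 2.25% with both compounds. In PARP1-KO cells the shares were 7.63, 7.38, 7.66 and 7.16% with Tpc and 2.62, 2.66, 7.76 and 3.00% with both. The WT groups were far apart, and in PARP1-KO cells only the library against its label reached the range with Tpc.

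The share of MT-ND5 differed by −3.90 percentage points in WT cells (exact two-sided permutation p = 0.0286, the smallest that 4 against 4 libraries allow, and 0.114 when adjusted over the 36 share tests). In PARP1-KO cells the difference was −3.45 points (exact permutation p = 0.143, adjusted 0.321), and −4.70 points without the 2 libraries (exact permutation p = 0.0286, adjusted 0.0791). In no share test did the adjusted p fall under 0.05. The share of MT-ND3 was also lower with both compounds in WT cells, at 1.24 against 1.64%, while those of MT-ND1 (5.09 against 3.85%), MT-ND2 (7.29 against 5.51%) and MT-ND4 (8.74 against 8.22%) were higher, each without overlap and with an exact permutation p of 0.0286 (adjusted 0.114). Shares add up to a fixed total, so a smaller share of some genes raises those of others. With rRNAs and MT-ND6 in the denominator the difference of MT-ND4 was −0.309 points.

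Between the genotypes, the share of MT-ND5 pointed the other way from its level. Without treatment it took 7.27, 6.54, 7.27 and 7.18% in PARP1-KO and 4.61, 5.93, 5.30 and 6.28% in WT libraries, which did not overlap (1.54 points, exact permutation p = 0.0286, adjusted 0.114). With DMSO the groups overlapped, and the difference was 0.712 points with all libraries (exact permutation p = 0.629, adjusted 0.789). It was 1.81 points without the 2 (exact permutation p = 0.0571, adjusted 0.137). The share of MT-ND4 differed by 1.27 points with DMSO and by 1.5 points without treatment, both higher in PARP1-KO cells and without overlap (exact permutation p = 0.0286 and adjusted 0.114 each), and by 1.59 points with DMSO without the 2 libraries. With rRNAs and MT-ND6 in the denominator the difference of MT-ND4 with DMSO was −0.20 points.

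**Figure D5:**
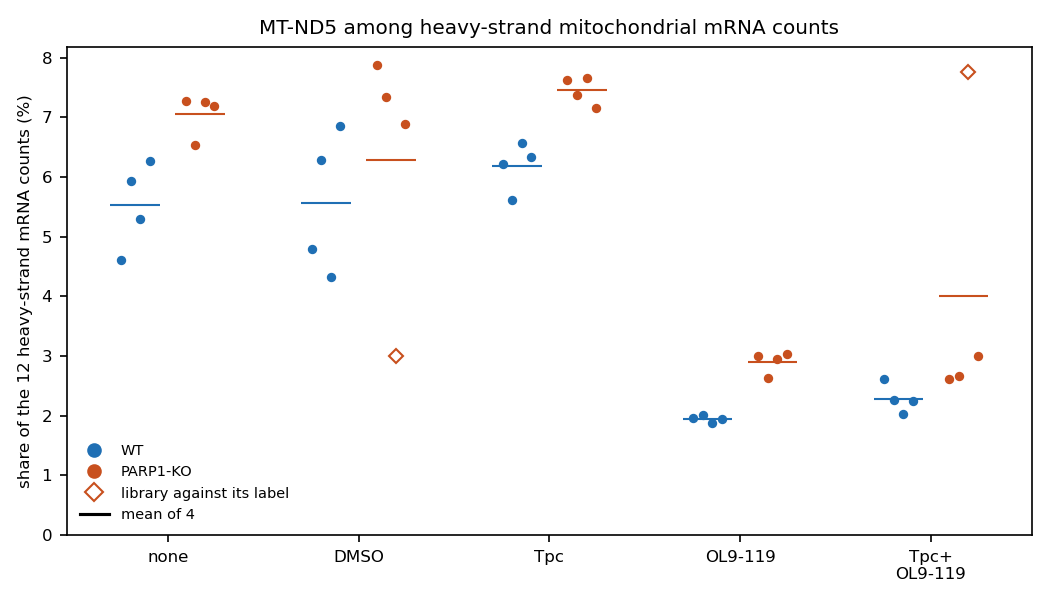
MT-ND5 as a percent of the counts of the 12 heavy-strand mRNAs (vertical axis, from 0) in the 40 libraries by treatment, with WT in blue, PARP1-KO in orange, the mean of 4 libraries as a line and open diamonds for the 2 libraries against their labels. With OL9-119 the WT libraries lie at 1.88 to 2.61% and those of PARP1-KO cells at 2.62 to 3.04%, apart from the library labelled Tpc + OL9-119 replicate 3 at 7.76%.

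Both compounds together were finally compared with DMSO, which shares control libraries with the comparisons above. In WT cells, 3 members were lower DEGs, where 1.54% of all genes were. These were MT-ND5 (log2 fold change −1.85, 27.7% of the DMSO level, adjusted p = 2.32e-08 by edgeR), MT-ND3 (−1.28, adjusted p = 1.32e-05) and MT-ND4 (−0.57, adjusted p = 0.00109). The call of MT-ND4 was lost with untreated cells as the comparator (−0.42, adjusted p = 0.0192) and in a fit of only the compared groups (−0.56, adjusted p = 0.0191). MT-ND1 (−0.20), MT-ND2 (−0.26) and MT-ND4L (−0.20) did not pass.

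In PARP1-KO cells, where both libraries against their labels take part, none of the members was a DEG for Tpc + OL9-119 against DMSO by edgeR or DESeq2, 2 had an unadjusted p under 0.05, and 0% of all genes were lower DEGs (834 at an unadjusted p under 0.05 in either direction, and 1 DEG by DESeq2). MT-ND5 had a log2 fold change of −0.64 (SE 0.22, adjusted p = 1). Without the 2 libraries it was −1.58 (SE 0.14, adjusted p = 4.57e-11 by edgeR), 1 of 4 lower DEGs or 0.0139% of all genes. MT-ND5 had helped to set these libraries apart, so that p-value is no independent test.

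Over the 10 condition means, the members were unevenly correlated. MT-ND1 and MT-ND2 followed each other with a Pearson r of 0.98 and MT-ND3 and MT-ND5 with 0.92, while r between MT-ND1 and MT-ND5 was 0.24. These are correlations of 10 log2 means that share genotype and treatment, given as a description. Of 10508 nuclear genes with a mean of at least 10 CPM, those whose means were most like the mean of the 6 members were NXPE3 (0.986), ENY2 (0.976), SAR1A (0.969), VBP1 (0.969) and CISD1 (0.967). Most like MT-ND5 were NAA20 (0.958), SMIM30 (0.935), IFT25 (0.935), VAMP3 (0.934) and MCTS1 (0.929), whose condition means ranged over narrower spans, such as 81.0 to 102.8 CPM for NAA20.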

How the data were processed

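RNA was sequenced from 40 libraries of HEK293A cells, 4 in each of 10 groups of genotype and treatment. Per the labels and the methods of the study, directional poly(A) libraries were read as pairs of 100 bases, aligned to hg38 with Ensembl annotation by STAR 2.7.8, and counted per gene by its GeneCounts option. The authors deposited these as raw counts, without normalization. The strand column kept is not given in the sources used here. Reads that touch more than 1 gene are not counted by that option.

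The 6 genes and all gene lists were chosen with earlier results of these data known. Named genes were the members, PARP1, the fixed lists with at most 3 DEGs of largest change per list and comparison, and the 5 nuclear genes most like the members or MT-ND5 over group means. Values named beyond these (TOP1MT and MTND2P28, and MT-RNR1, MT-CYB and MT-ND6 where they were no DEGs) were chosen after their values were seen, as was the score of 20 genes.

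Of 58395 genes listed, those whose counts over the 40 libraries added up to 10 or more, 28922 in number, entered edgeR 4.0.16 (TMM, quasi-likelihood test, 10 groups in 1 fit, R 4.3.3), with Benjamini-Hochberg adjustment and a threshold of 0.01. CPM used TMM library sizes. Intervals of 95% were taken from the SE. Shares were tested by exact permutation. Scripts were checked on simulated data. Alternatives were DESeq2 1.42.0, other filters and scalings, a fit of only the compared groups, untreated comparators, the replicate number as a block, other share denominators, and leaving out each library. Leaving out the pair of libraries against their labels was chosen after seeing the data. Sequences and positions come from the hg38 reference and GENCODE 44, and nuclear matches from BLAST+ 2.17.0. Samples were grouped by the labels alone, and no library was reassigned. Some of the markers checked are not reported here. Total counts of 3455043 to 20379777 per library limit precision by counting error far less than the spread between libraries did.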

Additional observations from a re-analysis of the deposited data

Results flagged for a closer look

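In 12 of 120 sets of 4 libraries (levels in CPM and shares of the 12 heavy-strand mRNAs, for 6 genes in 10 conditions), the highest or lowest library stood far from the other 3, by a gap to the nearest that was above Dixon's 95% critical value as a share of the whole range. Chance flags about 1 in 20 such sets. The values are given without explanation.

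The library labelled PARP1-KO Tpc + OL9-119 replicate 3 stood apart for MT-ND5, both as a level (2139 CPM, others 547.9 to 711.2) and as a share (7.759%, others 2.615 to 2.998%). The library labelled PARP1-KO DMSO replicate 3 stood apart in the share of MT-ND2, at 7.89% against 5.467 to 5.755%. These are the libraries against their labels.

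PARP1-KO OL9-119 replicate 2 was low for MT-ND1 (676 CPM, others 1039 to 1098) and for MT-ND5 (437.8 CPM, others 658.8 to 672.1). WT OL9-119 replicate 2 was high for MT-ND1, at 1754 CPM against 1372 to 1432. Untreated PARP1-KO replicate 1 was high for MT-ND2, at 2105 CPM against 1360 to 1476. WT Tpc replicate 2 was high for MT-ND3, at 936.9 CPM against 606.3 to 654.2. WT Tpc + OL9-119 replicate 3 was low for MT-ND4, at 2636 CPM against 3115 to 3163.

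Among the shares, WT DMSO replicate 2 was high for MT-ND2 (6.266%, others 5.608 to 5.648%), WT DMSO replicate 3 was high for MT-ND3 (2.834%, others 1.588 to 1.727%), and untreated PARP1-KO replicate 2 was low for MT-ND5 (6.535%, others 7.184 to 7.274%).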

How the results depend on the processing

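The fall of MT-ND5 with OL9-119 added to Tpc in WT cells kept its direction under every alternative run. As a log2 fold change it passed in each, and as a share it did not pass (exact permutation, adjusted p = 0.114). Without a filter on low counts, 1 member passed for Tpc in WT cells (MT-ND3, −0.58), 2 for OL9-119 added to Tpc in WT, 1 for the same in PARP1-KO cells (MT-ND5, −1.04), 1 for both compounds against DMSO in PARP1-KO cells (MT-ND5, −0.63), and 1 for each difference between genotypes (MT-ND3 0.87, MT-ND5 0.71), and MT-ND4L with DMSO (−0.48) and MT-ND5 untreated (−0.52) were added in PARP1-KO against WT. The SE of MT-ND3 with Tpc in WT cells was then 0.11 in place of 0.20, and the cause was not tested. That of MT-ND5 with OL9-119 added to Tpc in PARP1-KO cells was 0.10, although its libraries with both compounds ran from 548 to 2139 CPM. Passes in the fit without a filter therefore do not reflect the spread between libraries. Without the 2 libraries against their labels, 1 member passed in each of the 2 PARP1-KO comparisons with both compounds. Leaving out 1 library gave 4 to 5 members for PARP1-KO against WT with DMSO, 3 to 4 without treatment, and 0 to 1 for OL9-119 added to Tpc and for both compounds against DMSO in PARP1-KO cells, where the 1 is MT-ND5 without the library labelled Tpc + OL9-119 replicate 3 (−1.71 and −1.32).

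The sign turned, with values near 0 and no call, on leaving out 1 library for MT-ND4L in PARP1-KO against WT untreated (−0.30 to 0.02) and with Tpc in WT (−0.02 to 0.28), MT-ND1 with Tpc (−0.07 to 0.14), MT-ND2 with OL9-119 added (−0.13 to 0.16) and MT-ND4 with both compounds (−0.16 to 0.04) in PARP1-KO cells, with DMSO in WT for MT-ND3 (−0.23 to 0.30) and MT-ND4L (−0.06 to 0.28) and in PARP1-KO cells for MT-ND1 (−0.08 to 0.15) and MT-ND2 (−0.19 to 0.08), and in the genotype difference of Tpc for MT-ND4L (−0.06 to 0.23) and of OL9-119 added to Tpc for MT-ND2 (−0.21 to 0.08), MT-ND3 (−0.06 to 0.34), MT-ND4L (−0.29 to 0.04) and MT-ND4 (−0.09 to 0.10). It also turned without the 2 libraries for MT-ND1 with DMSO in PARP1-KO cells (−0.08) and MT-ND3 in the last difference (−0.06), with untreated comparators for MT-ND4L (−0.18) and with only the compared groups for MT-ND4 (0.01).

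With rRNAs and MT-ND6 in the denominator, the share of MT-ND4 turned to −0.20 points for PARP1-KO against WT with DMSO and to −0.309 for OL9-119 added to Tpc in WT, and that of MT-ND5 was 0.56 untreated and −2.82 for OL9-119 added in WT. Over the 6 members alone MT-ND5 differed by 3.27 points untreated, 2.57 and 3.31 with Tpc in WT and PARP1-KO, and −14.7 and −10.9 with OL9-119 added. On leaving out 1 library its shares differed by 0.178 to 1.81 (DMSO) and 1.23 to 1.78 (untreated) between genotypes, 0.208 to 1.05 and 0.0844 to 1.71 with Tpc, and −4.09 to −3.77 and −4.70 to −2.98 with OL9-119 added, in WT and PARP1-KO cells.

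Replicate numbers gave no pairing common to all comparisons: at most 3 of 4 pairs in any comparison correlated over 0.1, with r from −0.28 to 0.59. Differently numbered pairs were not examined, so pairing was not excluded. For the share of MT-ND4L, same-numbered WT libraries were close. They had 0.409, 0.660, 0.444 and 0.923% with DMSO and 0.411, 0.669, 0.453 and 0.924% without treatment. The share tests took libraries as unpaired. With the replicate number as a block the members called stayed at 5, 4, 1 and 3 where there were any and at 0 elsewhere, and MT-ND5 with OL9-119 added to Tpc was −1.73 in WT and −1.06 in PARP1-KO cells (adjusted p = 3.73e-07 and 0.242). The median of all genes for PARP1-KO against WT with DMSO was 0.19, and 0.01 without a filter.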
